A study of Mus musculus with 2 samples.

Results

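Chromatin of a Lck-Dlx5 mouse T-cell lymphoma was immunoprecipitated with a Myc-Tag antibody and sequenced, and 381 of the 3477 called intervals had their summit within 1000 bp of the ends of 2 or more different protein-coding genes. These 381 intervals were chosen by position alone, on chromosomes 1-14 and 16-19, with either the start or the end coordinate of a gene counting as an end, and intervals with the same coordinates in the input track were dropped. They were 12% (95% Wilson interval 10.9 to 13.2) of the 3167 intervals on these chromosomes that were not called in the input. Of the others, 1495 (47.2%, 45.5 to 48.9) had the end of 1 coding gene within 1000 bp, and 1291 (40.8%, 39.1 to 42.5) had none. Of the 381, 374 were tied to 2 coding genes and 7 to 3, and together they touched 741 genes, 3.73% of the coding genes on these chromosomes. Wilson intervals here and below, and the intervals given for medians, cover counting error only.

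The series holds a Myc-Tag ChIP library and an input library, 1 of each and without replicates. The transgene, carried by the tumor behind both libraries, is Myc-tagged Dlx5 under the Lck promoter, which is active in developing T cells. The labels give the strain as C57BL/6 for the ChIP and C57BL/7 for the input and call both a primary tumor, with no age of the mice, whereas the methods name a single lymphoma cell line and an IgG control. Each interval carries the height of its summit, a whole-number score whose normalization is not stated, so heights are compared within this library only and the depth behind them is unknown. No p-value can be given between conditions, and intervals of a single library are not replicates. The study asked where the ectopic Dlx5 protein sits on the genome of the lymphoma.

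Many mammalian genes lie head to head, with their starts a short distance apart on opposite strands, and such divergent pairs share a stretch of DNA that is often rich in CpG and serves as a promoter in both directions. Divergent pairs are frequent among genes that most cells use, such as those for histones, chaperones, mitochondrial proteins and DNA repair. Genes can also lie in tandem, with the end of one before the start of the next, or tail to tail. Dlx5 is a homeodomain factor, and homeodomains of its class bind AT-rich sites with a TAATT core.

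The DNA between the starts of a few pairs is shown first, because it is the stretch that the 2 genes share. Sequences are the plus strand of GRCm38.p6, cut from RefSeq promoter windows between the starts of the 2 genes, and capitals mark every match on either strand to any of 7 motifs. The homeodomain core was searched as TAATT, the box that the NF-Y complex recognizes as CCAAT, the core of many Ets family sites as CCGGAAG, the binding element of Sp family factors, or GC box, as GGGCGG, the motif typical of YY1 sites as AAGATGGCG, the E-box preferred by Myc and its relatives as CACGTG, and the TATA box found upstream of some starts as TATAAA. Matches that overlap form 1 run of capitals, as where CCAAT and the reverse of TAATT share letters. The first 3 belong to the tallest interval at a head-to-head pair, the next in height, and the tallest with fewer than 20 bases between its starts. They cover chr2:91650052-91650117, chr5:143180776-143181016 and chr4:155891859-155891874.
Zfp408-Arhgap1: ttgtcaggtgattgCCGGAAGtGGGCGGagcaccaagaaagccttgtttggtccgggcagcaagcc
Rbak-Spdye4b: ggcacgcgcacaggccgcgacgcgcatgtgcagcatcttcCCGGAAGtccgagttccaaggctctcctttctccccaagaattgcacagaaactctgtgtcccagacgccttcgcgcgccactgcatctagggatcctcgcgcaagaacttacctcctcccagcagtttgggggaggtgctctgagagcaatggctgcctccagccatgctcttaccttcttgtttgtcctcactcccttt
Pusl1-Acap3: gccggctatgtttcct
None of these 3 held a TAATT match, but the summits of Zfp408-Arhgap1 and Pusl1-Acap3 lay outside the segments shown.

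TAATT was in 6 of the 113 different segments that could be read, and no such share was computed for head-to-head pairs without an interval. In 117 of the 150 intervals at 2 starts without overlap of the genes, the summit lay inside a gene and not in such a segment. To give the motif in place, 2 segments with TAATT are shown, at chr5:31193140-31193261 and chr14:52104040-52104240. Both pairs were picked after their sequences were seen.
Eif2b4-Snx17: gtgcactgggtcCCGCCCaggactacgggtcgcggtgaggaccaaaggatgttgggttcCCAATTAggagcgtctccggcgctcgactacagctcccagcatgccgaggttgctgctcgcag
Hnrnpc-Rpgrip1: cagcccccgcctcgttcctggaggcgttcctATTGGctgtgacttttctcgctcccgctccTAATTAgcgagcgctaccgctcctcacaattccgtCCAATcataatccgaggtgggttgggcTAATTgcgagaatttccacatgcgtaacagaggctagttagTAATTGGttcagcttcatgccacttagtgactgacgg
The Hnrnpc-Rpgrip1 segment held 4 TAATT matches, where TAATTA counts once on each strand, and 3 CCAAT matches. The Eif2b4-Snx17 segment held 1 of each, sharing letters, and 1 GC box.

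Histone H2A and H2B genes are arranged as divergent pairs, and pairs of them with a summit between the starts or 24 bp inside one are shown by chr13:21716184-21716411 and chr13:23571221-23571399.
H2bc13-H2ac13: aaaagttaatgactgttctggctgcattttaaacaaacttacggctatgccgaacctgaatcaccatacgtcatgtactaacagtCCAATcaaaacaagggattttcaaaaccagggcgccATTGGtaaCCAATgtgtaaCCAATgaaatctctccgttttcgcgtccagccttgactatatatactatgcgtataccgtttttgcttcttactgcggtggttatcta
H2ac8-H2bc8: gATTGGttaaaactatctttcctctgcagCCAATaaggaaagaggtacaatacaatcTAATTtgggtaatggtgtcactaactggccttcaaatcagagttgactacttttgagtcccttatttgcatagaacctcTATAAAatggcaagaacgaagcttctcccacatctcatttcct
CCAAT matched 4 times in the H2bc13-H2ac13 segment and 2 times in the H2ac8-H2bc8 segment. For comparison, 2 divergent pairs known from textbooks had no interval at all, at chr9:53536829-53536888 and chr17:34187331-34187555.
Atm-Npat: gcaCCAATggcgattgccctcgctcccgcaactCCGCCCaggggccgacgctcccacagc
Psmb9-Tap1: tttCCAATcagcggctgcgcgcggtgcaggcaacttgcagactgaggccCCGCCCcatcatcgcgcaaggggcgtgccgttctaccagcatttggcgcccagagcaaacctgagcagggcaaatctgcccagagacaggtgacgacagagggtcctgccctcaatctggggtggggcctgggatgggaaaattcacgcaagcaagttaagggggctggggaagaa
Both held CCAAT and GC box matches and no TAATT match. The segment of Brca1-Nbr1, which also had no interval and is not shown, held CCAAT but neither a GC box nor TAATT.

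The tallest interval was at the divergent pair of Zfp408, a zinc finger gene, and Arhgap1, which encodes a GTPase-activating protein. Its summit height was 66, in the interval chr2:91649582-91650544 of GRCm38, and 14 of all 3477 summits were taller. The summit lay 35 bp inside Zfp408 and 102 bp from the start of Arhgap1, and the interval covered both starts, which are separated by 66 bases. Rbak, a zinc finger gene whose product binds the retinoblastoma protein, and Spdye4b had a summit of 52 (chr5:143180538-143181215) between starts 241 bases apart. Nhlrc3-Proser1 followed (chr3:53463111-53464049) with a height of 48 and 536 bases between the starts. At Pgap6-Mrpl28 (chr17:26123017-26123910) the height was 47, and this was a tandem pair, in which the interval lay between the end of Pgap6 and the start of Mrpl28, a gene for a protein of the mitochondrial large ribosomal subunit. Pusl1-Acap3 (chr4:155891403-155892555) had a height of 44 over starts only 16 bases apart.

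The other 5 of the 10 tallest held 3 with histone genes. H2bc6 and the linker histone gene H1f4 lie in tandem on the minus strand and shared a summit of 43 (chr13:23620935-23622717). The summit at Dpagt1, which starts the assembly of N-glycans, and H2ax, the variant histone phosphorylated at DNA breaks, reached 41 (chr9:44334393-44335951), and that at H4c1-H3c1 reached 35 (chr13:23761012-23762093). Strand was not used at these last 2 pairs. Zfp661-Mrps5, the latter for a small subunit protein of the mitochondrial ribosome, had 41 (chr2:127587035-127587859) at 2 starts 331 bases apart. Coq6, an enzyme of coenzyme Q synthesis, and Fam161b overlap at their starts and had 38 (chr12:84361656-84362533). Among these 10 tallest, 6 were at 2 starts, 2 at a start and an end, and 2 had no strand.

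**Figure D1:**
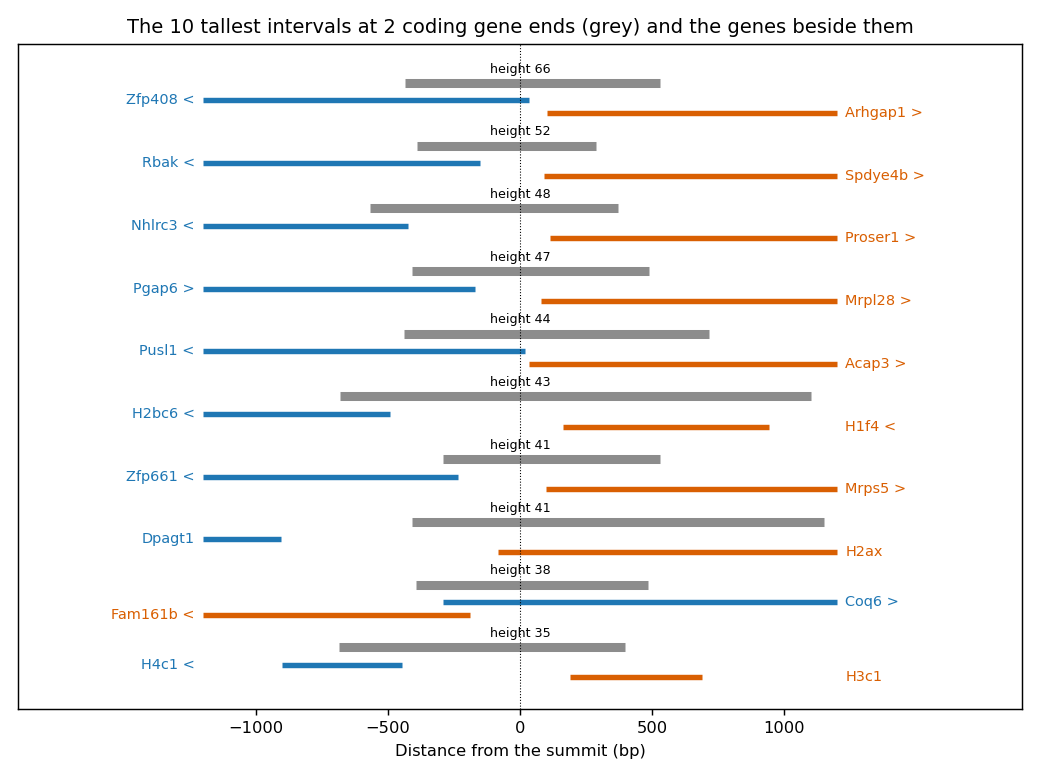
The 10 tallest intervals (grey bars, with summit height as a score) are drawn around their summit at 0, with distance in bp on the x axis, and the nearest 2 genes below each as blue and orange bars cut at the edge of the plot, with > or < for the direction of transcription where known. Summits range from 66 down to 35, and most grey bars reach across both facing ends.

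The heights of the 381 intervals were close to those of the rest of the library. The median was 16 (exact binomial 95% interval 16 to 17), the 5th and 95th percentiles were 12 and 30, and the range was 10 to 66. Intervals at 1 coding gene end had a median of 15 (15 to 15) and a maximum of 73, and those at no coding end a median of 15 (15 to 15) and a maximum of 64. A height of 19 or more was reached by 116 of the 381 (30.4%, 26.0 to 35.2), by 365 of those at 1 end (24.4%, 22.3 to 26.7) and by 335 of those at none (25.9%, 23.6 to 28.4), and these intervals overlap. The intervals at 2 or more ends were wider, with a median of 847 bp (816 to 880) against 782 bp (766 to 795) at 1 end and 666 bp (654 to 679) at none. The lowest height, 10, occurred 2 times, at H2ac8-H2bc8 and at Nhlrc2-Dclre1a.

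**Figure D2:**
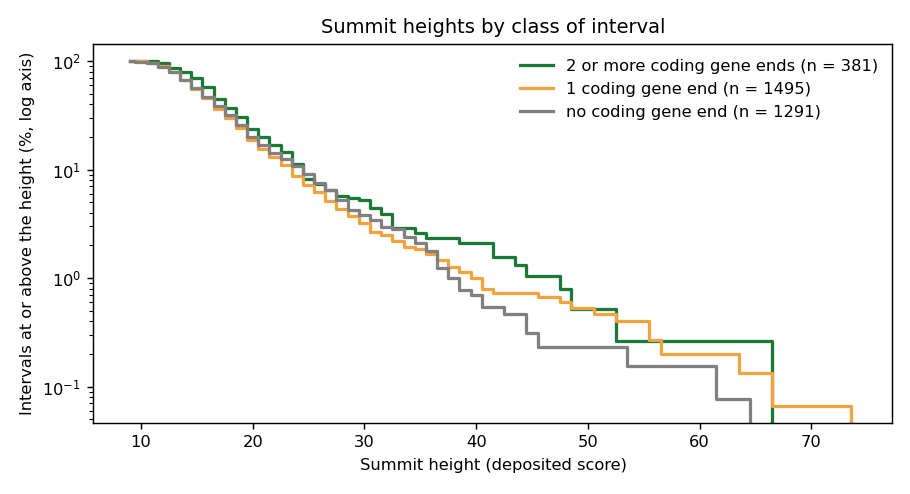
The share of intervals at or above each summit height (x axis, deposited score) is drawn on a log axis in percent for intervals at 2 or more coding gene ends (green, n = 381), at 1 (orange, n = 1495) and at none (grey, n = 1291). The 3 curves run close together over most heights, with maxima of 66, 73 and 64.

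The name of an interval between 2 gene ends fits a minority of the 381. The summit lay in the stretch between the nearest ends of the 2 genes, or in their overlap, in 100 (26.2%, 22.1 to 30.9). It lay in no coding gene in 79 (20.7%, 17.0 to 25.1), inside exactly 1 coding gene in 267 (70.1%, 65.3 to 74.5) and inside 2 or more in 35. The called interval was wide enough to reach both ends in 259 (68.0%, 63.1 to 72.5). The median distance between the 2 ends was 173 bases, with quartiles of 66 and 394. The nearer end was a median of 126 bp from the summit and the farther 317 bp. Most summits lie on a grid of 16 bp, which limits these distances. An end of a noncoding gene or pseudogene was also within 1000 bp in 13 of the 381 (3.41%), of which 7 were lncRNA genes.

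Strand was known for both of the nearest genes at 298 of the intervals. Of these, 231 (77.5%, 72.4 to 81.9) were at 2 starts, 61 (20.5%, 16.3 to 25.4) at a start and an end and 6 (2.01%, 0.926 to 4.32) at 2 ends. The median height was 16 both at 2 starts and at a start and an end. At 2 starts, the starts were a median of 131 bases apart, 184 of the 231 intervals (79.7%) covered both, and 229 of the pairs were on opposite strands. The 2 exceptions, Gm21992-Rbm14 and Utp14b-Acsl3, share 1 start position on 1 strand and are overlapping gene models rather than neighbors. They and Maz-Prrt2, which shares an end position, had the smallest distance between ends, with heights of 17, 12 and 13.

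The 61 at a start and an end included 48 with both genes on the same strand, as in a tandem array, where the facing ends were farther apart (median 540 bases over the 61). The start was the nearer end in 44 of the 61 (72.1%). The remaining 13 were on opposite strands, and in 10 of them both genes were histone genes, which are so short that the far end of one is the nearest point to the summit. The 6 at 2 ends had a median height of 14.5 (quartiles 13.25 and 15.75), against 16 (quartiles 14 and 19) at 2 starts, and these spreads overlap. Tsks-Cpt1c had 25, H2ac21-H2ac20 had 16, Cops6-Mcm7 had 15, Romo1-Rbm39 had 14, and Tubb4b-Fam166a and Idh3b-Nop56 had 13. These 6 were named after their values were seen.

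How the orientation compares with the genome was read from all pairs of coding genes with ends at most 2000 bp apart. Of 4544 such pairs, 384, or 8.45%, had an interval tied to both genes. The share was 23.9% (21.3 to 26.6) of the 997 pairs whose nearest ends were 2 starts. It was 5.92% (4.58 to 7.63) of the 929 with a start and an end and 0.571% (0.262 to 1.24) of the 1051 with 2 ends. These 3 ranges do not overlap. Among the 1567 pairs without strand the share was 5.42%. Pairs with 2 ends were thus about as frequent as pairs with 2 starts, but 6 had an interval against 238. Pairs were classed by their nearest ends without comparing strands. Overlapping gene models on 1 strand that share a start or an end therefore count among them, and their number was not counted. The order held at each distance. At 0 to 200 bp between the ends, 25.7% of the 2-start pairs, 10.1% of the start and end pairs and 0.888% of the 2-end pairs had one. At 201 to 500 bp the values were 30.2%, 9.58% and 0.575%, and at 501 to 1000 bp 18.3%, 9.63% and 0.450%. Beyond 1000 bp all fell, to 6.73%, 0.985% and 0.315%, where the rule leaves only summits between the ends.

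**Figure D3:**
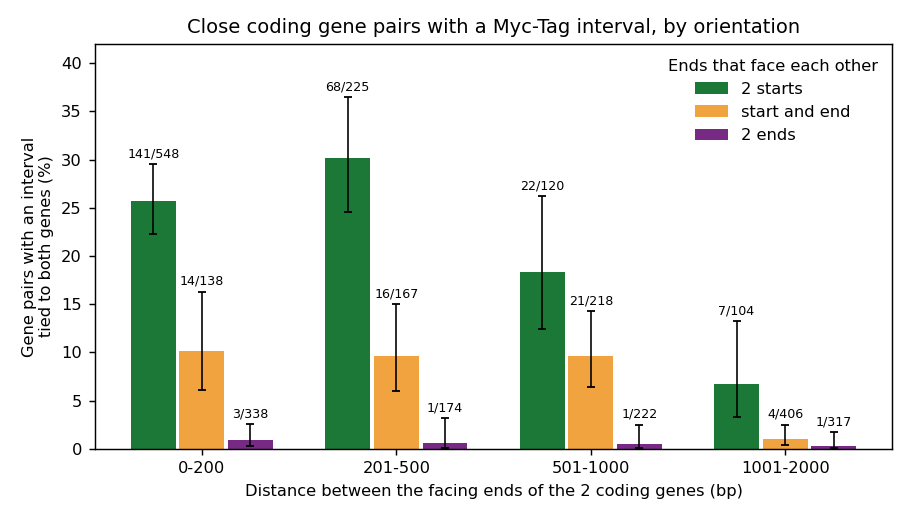
The bars give the percent of close coding gene pairs with an interval tied to both genes (y axis). They are grouped by the distance between the nearest ends in bp (x axis) and by the kind of those ends (green 2 starts, orange start and end, purple 2 ends). Whiskers are 95% Wilson intervals, with the counts above. The 2-start bars are the highest in each group, at 25.7%, 30.2%, 18.3% and 6.73%.

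Starts without a coding neighbor were counted as well. Of 10638 coding genes with known strand and no other coding end within 2000 bp, 784 (7.37%, 6.89 to 7.88) had an interval within 1000 bp of the start and 40 (0.376%, 0.276 to 0.512) within 1000 bp of the end. Of the 997 pairs with 2 starts, 270 (27.1%, 24.4 to 29.9) had an interval at 1 or both genes, and in 238 of these the same interval was tied to both. A pair offers 2 starts, so the share per pair and the share per start are not on the same footing. Counted per gene, 17.7% of the 6600 coding genes with a close coding neighbor had any interval at an end, against 7.60% of the 13289 without one. An interval near the ends of 2 genes counts for both, so a gene with a close neighbor is also credited with its neighbor's interval. These 2 shares are therefore not on the same footing either, and how much of the gap comes from the counting was not tested.

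Within the 231 intervals at 2 starts the summit was usually on one side. In 150 the genes did not overlap, and in these the summit was between the starts in 33 (22.0%, 16.1 to 29.3) and inside 1 of the genes in 117 (78.0%, 70.7 to 83.9). The share between the starts followed the room there. It was 7 of 75 (9.33%, 4.59 to 18) with 0 to 100 bases, 11 of 50 (22.0%, 12.8 to 35.2) with 101 to 300 and 15 of 25 (60%, 40.7 to 76.6) with more. The median height was 16, 16 and 17 in the same order. In the other 81 the genes overlapped at their starts, and the summit was in the overlap in 23 (28.4%, 19.7 to 39.0).

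Measured from the nearest listed start, the summits at 2 starts had a median of 41 bp on the transcribed side, with quartiles of -72.5 and 132. The transcribed side held 136 of 231 (58.9%, 52.4 to 65.0), and 197 (85.3%) lay within 250 bp of the start. The median was 22 bp for genes on the plus strand and 49 bp for genes on the minus strand, in both cases into the gene. Along the chromosome, without regard to strand, the median was -15 bp, a shift to lower coordinates of less than 1 step of the 16 bp grid. Intervals at 1 coding end had -14 bp along the chromosome and a median of 34 bp relative to the start, with 679 of 1222 (55.6%, 52.8 to 58.3) on the transcribed side and 777 (63.6%) within 250 bp. With 2 starts to choose from, a summit is nearer to one of them by construction.

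**Figure D4:**
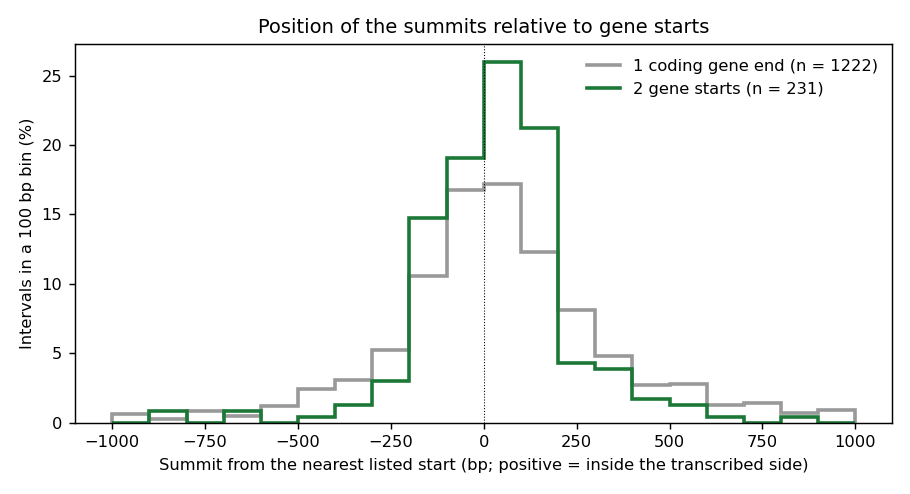
The percent of summits in each 100 bp bin (y axis) is drawn against the distance in bp from the nearest listed gene start (x axis, positive on the transcribed side) for intervals at 2 starts (green, n = 231) and at 1 coding gene end (grey, n = 1222). Both peak just inside the gene, and 85.3% and 63.6% of summits lie within 250 bp of the start.

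Promoters of the genes at 2-start intervals were rich in G and C. GC content was taken over the 300 bases from 250 before to 50 after the start. Its median was 63.7% in the 458 genes and 60.7% in 1458 genes of 2-start pairs without an interval. It was 62.3% in 1145 genes with an interval at their start alone and 56.7% in 16035 coding genes. The ratio of observed to expected CpG was 0.855, 0.804, 0.842 and 0.595 in the same order. The promoters of a close pair cover part of the same DNA, so these genes are not independent.

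TAATT, on either strand, was found in 13.5% (10.7 to 17.0) of the 458 promoters and in 16.2% (14.4 to 18.2) of those of 2-start pairs without an interval. It was in 14.9% (13 to 17.1) of those with an interval at the start alone and in 24.0% (23.3 to 24.7) of all. The Ets core CCGGAAG was in 28.6% (24.7 to 32.9) of the 458, against 23.7% (21.6 to 26.0), 23.1% (20.8 to 25.7) and 12.2% (11.7 to 12.8). The GC box was in 65.7%, 62.7%, 71.4% and 47.1%, CCAAT in 38.4%, 40.9%, 37.8% and 39.2%, and the E-box in 11.1%, 10.8%, 11.7% and 7.96%. AAGATGGCG was in 5.02%, 4.60%, 3.14% and 1.91%, and TATAAA in 4.80%, 5.69%, 6.55% and 13.6%. Except for CCAAT, the largest gaps were to all promoters, and the 3 sets of CpG-rich promoters lay near each other. Between the starts proper, the 113 different segments had a median of 88 bases and 64.4% GC, and 33 (29.2%) held CCAAT, 47 (41.6%) a GC box, 16 an Ets core and 6 (5.31%) TAATT. A match is a description of letters and not a bound site. The sequences of the called intervals were not read. Those at 2 starts had a median width of 866 bp, so matches outside the promoter windows were missed. The paper reports, from a motif search over its ChIP-seq, that most Dlx5 binding matched TAATT, which these shares do not address.

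The genes at these intervals were then grouped by list. Of the 6600 coding genes with a coding neighbor within 2000 bp, 741, or 11.2%, were at one of the 381 intervals, and each list is read against this share. It pools pairs of all orientations, and pairs with 2 starts had an interval more often than the others. How many genes of each list lie in such pairs was not counted, so the lists are not matched for orientation. Genes of 1 list are often each other's neighbor, so 1 interval can count 2 of them.

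Histone genes, which package DNA, had the highest share, with 32 of 53 (60.4%, 46.9 to 72.4) at 21 intervals. H2aw is not on this list, and its interval at Trim17-H2aw, with a height of 18, is not among the 21. The tallest were H1f4 and H2bc6 at 43, H2ax at 41, and H3c1 and H4c1 at 35. At 19 intervals both of the nearest genes were histone genes, with heights from 10 to 43 and a median of 16. The genes at these have a median length of 492 bp, and a summit anywhere on one that short is near both of its ends and often near those of its partner. Exceptions include H2bc6 and H2bc22, with long gene models annotated at chr13:23583670-23621124 and chr13:21787483-21801561. Of 9 divergent H2A-H2B pairs with known strand, 7 (77.8%, 45.3 to 93.7) had an interval tied to both genes. Copies of the histone genes are nearly identical in their coding parts, and how reads with several matches were treated is not given in the sources used here, so the values of single histone genes are uncertain.

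Several pairs had more than 1 interval. These were 9 of 370 different nearest pairs, with 20 intervals. H2ac13-H2bc13 had 3, of heights 18, 17 and 19 along the chromosome, and H2ac8-H2bc8 had 3, of heights 11, 15 and 10. In both, the middle summit lay between the starts or just inside one, and the outer summits lay beyond the far ends. Cbx3, for a heterochromatin protein, and Hnrnpa2b1, for an RNA-binding protein, had 2, with heights 18 and 12 and summits 1416 bp apart, 1 in each gene. Pcna, the sliding clamp of DNA replication, and Cds2 had heights 16 and 14. Pairs with more than 1 interval were listed after their values were seen.

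The 7 intervals at 3 coding genes had heights from 11 to 24, and 4 of them were at histone genes. H2bc13, H2ac13 and H3c10 had 19, H2ac21, H2ac20 and H2bc21 had 16, H4c9, H2ac11 and H2bc11 had 14, and H2bc7, H2ac7 and H3c4 had 11. The tallest of the 7 was at Rad17, a checkpoint clamp loader gene, with Ak6 and Taf9, at 24. Nup62, Il4i1b and Atf5 had 18, and Emc8, Gm27021 and Cox4i1 had 16.

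Genes of translation followed. Aminoacyl-tRNA synthetases, which charge tRNAs, had 10 of 19 (52.6%, 31.7 to 72.7), led by Fars2 at 30, Aars and Vars at 27 and Wars at 23. Mitochondrial ribosomal proteins had 17 of 49 (34.7%, 22.9 to 48.7), led by Mrpl28 at 47, Mrps5 at 41 and Mrpl21 at 34, with Mrpl2, Mrpl44 and Mrps7 tied at 24. Cytosolic ribosomal proteins had 10 of 41 (24.4%, 13.8 to 39.3), led by Rpl41 at 24, Rpl35a at 23, Rps27a at 21 and Rpl7a at 20. For these 3 lists the interval lies above 11.2%. Translation factors had 5 of 32 (15.6%, 6.86 to 31.8), a range that includes it. Eif2b4, a subunit of the exchange factor for Eif2, reached 32, and Eef2, the translocation factor, 18, while Eef1b2 and Eif2s1 had 12.

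Splicing factors had 16 of 44 (36.4%, 23.8 to 51.1), with Hnrnpul2 at 25, Snrnp200 at 24 and Hnrnpc and Hnrnpk at 23. Chaperones, which fold proteins, had 13 of 51 (25.5%, 15.5 to 38.9), with Bag5 at 30, Dnajb14 at 25 and Dnajb4 and Hsp90b1 at 21. DNA replication and repair genes had 21 of 98 (21.4%, 14.5 to 30.5), with Rad17 at 24, Polg2 at 22, and Fancm, Mcm4 and Prkdc at 20. All 3 ranges lie above 11.2%. Among summits of at least 19, where the share of all such genes was 3.48%, the ranges of chaperones (7.84%, 3.09 to 18.5) and of replication and repair genes (6.12%, 2.84 to 12.7) included that share. Bag5 is divergent from Coa8, an assembly factor of cytochrome oxidase, with 11 bases between the starts, so both lists count the same interval.

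The ranges of the next lists include 11.2%. Respiratory chain genes had 13 of 75 (17.3%, 10.4 to 27.4), with Coq6 at 38, Coa8 at 30, Ndufa13 at 27 and Ndufs3 at 24. Proteasome genes had 4 of 25 (16%, 6.40 to 34.7), with Psmg2 at 31, Psmb3 at 17, Psma7 at 14 and Psmc2 at 12. Zfp zinc finger genes had 11 of 76 (14.5%, 8.28 to 24.1), with Zfp408 at 66, Zfp661 at 41, Zfp473 at 32 and Zfp654 at 19. The Irs and Akt pathway had 2 of 16 (12.5%, 3.50 to 36.0). Pdpk1, the kinase that activates Akt, shared a summit of 16 with Kctd5, and Rps6kb1, a kinase downstream of it, shared one of 16 with Tubd1.

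No gene of the T-cell list was at one of these intervals, among 13 with a close neighbor, and none of 23 Notch pathway genes or 19 olfactory receptor genes. A count of 0, taken to allow up to 3 counts, allows shares of up to 23.1%, 13% and 15.8%, and the Wilson upper limits are 22.8%, 14.3% and 16.8%, all above 11.2%, so a share like that of other genes cannot be set aside at these numbers. Counting intervals at any end, neighbor or not, 12 of 69 T-cell genes, 9 of 46 Notch pathway genes, 13 of 38 Irs and Akt genes and 0 of 1094 olfactory receptor genes had one, against 11% of all coding genes.

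**Figure D5:**
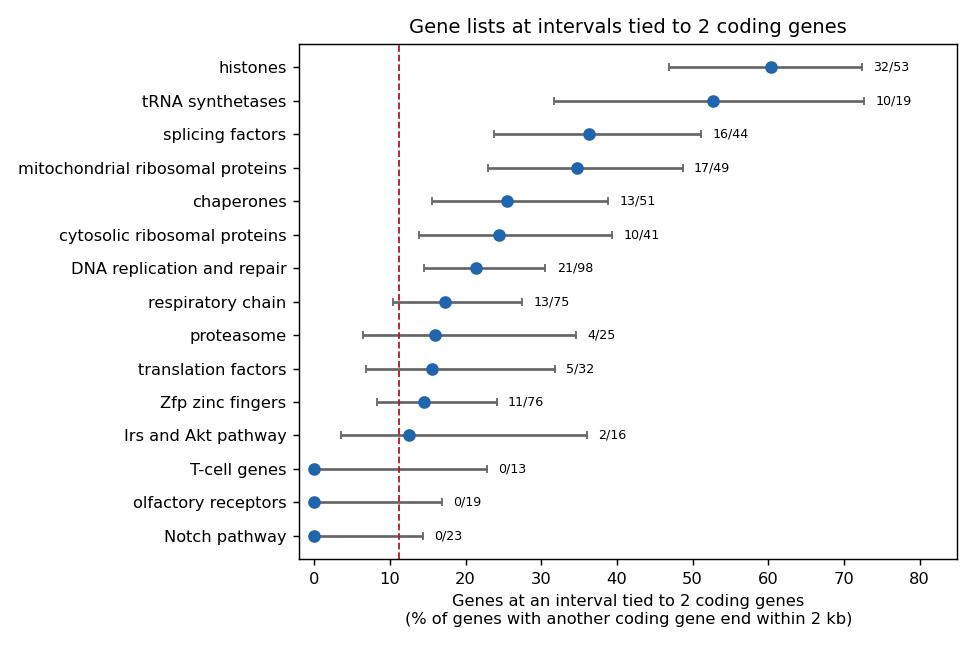
Each point is the percent of a list's genes with a coding neighbor within 2000 bp that are at one of the 381 intervals (x axis), with its 95% Wilson interval and the counts beside it. The dashed line is the 11.2% of all such genes, and the ranges of 7 lists, from histones at 60.4% to DNA replication and repair at 21.4%, lie above it.

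Divergent pairs known from textbooks were looked up one by one. Hspd1-Hspe1, for the mitochondrial chaperonin and its partner, had a height of 17, with the summit 627 bp from the start of Hspd1 and 532 bp from that of Hspe1. Prkdc-Mcm4, a DNA repair kinase and a subunit of the replicative helicase, had 20. Ppat-Paics, both of purine synthesis, had 15, and Cbx3-Hnrnpa2b1 had the 18 and 12 given above. No interval lay at Atm-Npat, Surf1-Surf2, Tap1-Psmb9, Col4a1-Col4a2 or Brca1-Nbr1. Ndufaf1-Rtf1 was more than 2000 bp apart in the annotation used, with an interval of height 23 at Ndufaf1 alone.

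The 1000 bp limit cut through a continuous range of distances. Just inside it, the summit at Supt16-Chd8 was 999 bp from the farther end, with a height of 12, and that at H2bc12-H2ac12 was 981 bp away, with 13. Just outside, Cactin-Pip5k1c and Cdc26-Prpf4 were both at 1018 bp, with 16 and 13. By chromosome the number of intervals at 2 or more coding ends ran from 4 on chromosome 18 to 39 on chromosome 2, and their share of a chromosome's intervals from 4% to 16%.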

How the data were processed

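A Myc-Tag ChIP library and an input library of a Lck-Dlx5 lymphoma were analysed, 1 each. The authors deposited 5 browser tracks, with 2 of intervals, 2 of summits and 1 of active regions, and the deposited summit score is a height as a whole number of unstated normalization. Active Motif sequenced the libraries on an Illumina GA II and called peaks by MACS p-value. The submitters' processing notes name BWA and mm9, while the paper's browser view names mm10. The summits were read on mm10 because 58.4% of all 3477 lay within 1000 bp of a coding gene end of GRCm38.p6. No mm9 annotation was used here, so the fit to mm9 was not compared, and every distance and gene assignment rests on this choice. Starts are counted from 1. The 28 input intervals all had the coordinates of a Myc-Tag interval, and 23 of them fell on the chromosomes used, none at 2 coding genes. Read totals were not analysed here.

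Each summit was joined to the start and end coordinates of RefSeq protein-coding genes. The RefSeq gene table has no strand, so the orientation of pairs was taken from the RefSeq promoter table, which gave it for 17492 of 21887 coding genes and for 631 of the 741 genes concerned. Sequences came from the same promoter table. The members and lists were chosen with earlier results of these data known, and the symbols of each list were written out after the tables were at hand. Genes named in the text are those at the 10 tallest intervals, at intervals tied to 3 coding genes and at the 3 with the smallest end distance, up to 4 per list with the tallest intervals (more where tied), the textbook pairs, the T-cell, Notch, Irs and Akt genes concerned, and 2 intervals on each side of the limit. One textbook pair is not reported here. Others are said to be named after their values were seen.

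With 1 library per group no test was run. Shares have 95% Wilson intervals and medians exact binomial intervals. Intervals were computed with scipy 1.17.1, tables with pandas 2.3.3 and numpy 2.4.6, and figures with matplotlib 3.10.9, all under Python 3.11.15. On simulated data, 300 of 300 summits placed at close pairs were recovered, 300 with their orientation, and 5 of 700 random ones were called. The placed summits lay midway between ends at most 300 bp apart, at pairs of known strand. Their recovery under the 1000 bp rule was thus fixed in advance, and the run checks the code only. Alternatives were distances of 500 and 2000 bp, heights of at least 16 and 19, overlap of the interval by 1 bp, all annotated genes, all chromosomes, pairs within 1000 bp and histone genes left out.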

Additional observations from a re-analysis of the deposited data

How the results depend on the processing

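No paired analysis was possible because the ChIP and the input are single libraries, and for the same reason no replicate could be left out. Of 30 values recomputed under another setting, 16 stayed within their counting interval or, for counts, within 1.5 times, and 14 moved. Among the counts within 1.5 times, the 381 intervals became 258 within 500 bp, 535 within 2000 bp and 259 where the interval itself overlapped both ends. They became 221 at a height of at least 16, 116 at a height of at least 19 and 687 with all annotated genes, which follows from the settings, and their share of 12% became 14.6%, 14.2% and 21.7%. The share was 8.15% within 500 bp, 16.9% within 2000 bp and 8.18% where the interval itself had to overlap both ends. The share with the summit in no gene rose from 20.7% to 31.0% among summits of at least 19, for which the cause was not tested. The share at 2 starts was 86.3% within 500 bp and 66.2% within 2000 bp, against 77.5%. At a height of at least 19, with fewer intervals, 7.32% of 2-start pairs and 3.48% of genes with a close neighbor were concerned. Likewise, 12 of the 15 lists fell while the 3 at 0 stayed there. The range lay above the share of all such genes for 7 of the 15 lists, and for 5 at a height of at least 19, without chaperones and replication and repair. Median height and width, the TAATT share and the values without histone genes moved by less than their spread. Without replicates or read totals, a height cannot be given an error, and a pair without an interval may be bound below the calling threshold.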
